A study of Rattus norvegicus with 12 samples.

Results

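Livers of untreated rats of 2 strains were compared: 3 conventional Sprague Dawley rats (animals 6, 7 and 8) and 3 Han Wistar rats that received no antibiotic (animals 1, 2 and 3). The samples were chosen by their titles and strain labels and make up 6 of the 12 liver samples in the study, 1 array per animal. The study set germ-free Sprague Dawley rats (animals 1, 3 and 4) against the conventional ones, and Han Wistar rats with streptomycin and penicillin in their drinking water for 8 days (animals 13, 14 and 15) against the untreated ones. Every comparison between the untreated groups is therefore a comparison of strain and of experiment at once, and these cannot be told apart. The labels give no sex, age, diet, supplier, housing or time of collection for any group. Sex was read from sex-linked transcripts, given below, and the others cannot be told apart from strain either. Total RNA was measured on Affymetrix rat arrays, and 31042 probe sets other than the array's controls were tested, of which 20826 carried 1 gene symbol, for 14217 genes.

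Sprague Dawley and Han Wistar rats are outbred stocks, so animals of 1 stock differ genetically from each other as well as from the other stock. The liver makes most plasma proteins, turns cholesterol into bile acids, burns or stores fatty acids, and clears foreign compounds with cytochromes P450 and conjugating enzymes. Many of these genes follow sex, feeding, time of day and gut microbes.

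Differences are given as log2 of the signal plus an offset of 16, Sprague Dawley minus Han Wistar, with the standard error of the limma fit and n = 3 animals per strain. The offset makes dim genes' differences smaller than their ratios. A gene was called where the limma p, adjusted by Benjamini-Hochberg over all probe sets, was under 0.05, and a gene with several probe sets is given by its brightest one. A second, disjoint pair of groups, germ-free Sprague Dawley against antibiotic-treated Han Wistar, shares no array with the untreated pair and is printed beside it as the treated pair. Its own treatments differ between the strains.

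The arrays were on 1 scale but differed in a measure of RNA quality. The 3′ over 5′ signal ratio of the beta-actin control probe sets, which rises as RNA is degraded or incompletely copied, was 4.50, 6.17 and 5.43 in the Sprague Dawley livers and 2.47, 2.69 and 2.48 in the Han Wistar livers. All 3 Sprague Dawley arrays lay above all 3 Han Wistar arrays, with means of 5.37 ± 0.839 and 2.55 ± 0.123 (SD, n = 3), and the exact two-sided permutation p of 0.1 was the smallest that 3 against 3 can give. The treated pair differed the same way, at 4.39 ± 0.762 and 2.73 ± 0.131 (SD, n = 3; exact permutation p = 0.1). The ratio of Gapdh was 1.63 ± 0.164 and 1.34 ± 0.0695 (SD, n = 3; exact permutation p = 0.1), while its 3′ over middle ratio differed by -0.00649 (exact permutation p = 0.9). In the treated pair the Gapdh 3′ over 5′ ratio was 1.52 ± 0.286 and 1.41 ± 0.0796 (SD, n = 3, exact permutation p = 0.8). Its 3′ over middle ratio there differed by 0.0271 (exact permutation p = 0.9). With the actin ratio as a covariate 4 probe sets were called in place of 3257, as the median standard error grew from 0.16 to 0.437. Of the 3257 differences, 89.9% kept their sign in that fit, with a median size of 0.49 against 0.65. Of the 112 called genes named here, by brightest probe set, Pxmp4 alone was still called with the covariate. For Lss a dimmer probe set was called with it (3.51), but not the brightest one (2.84, limma adjusted p = 0.105). As the ratio went with strain on every array, RNA quality and strain cannot be told apart for any gene, including those called with the covariate.

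**Figure D1:**
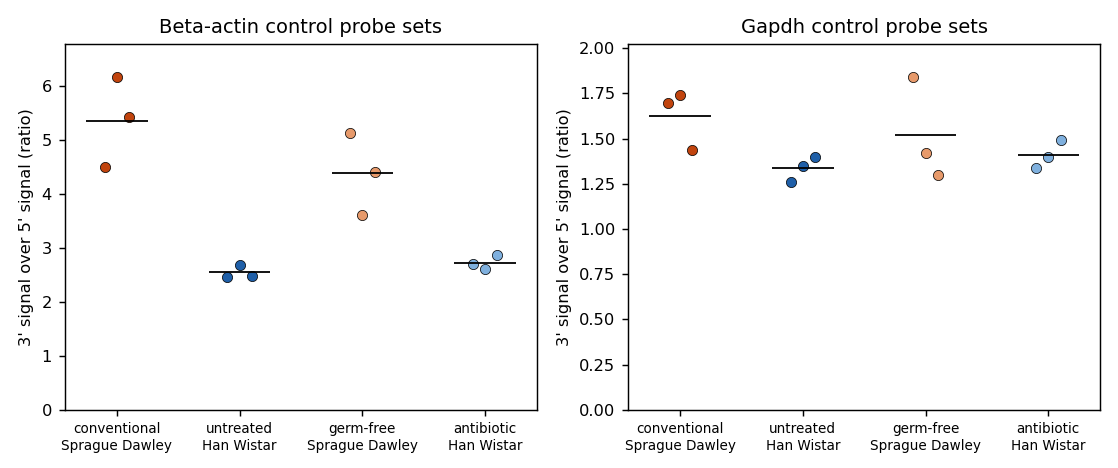
Ratio of 3′ to 5′ signal of the beta-actin (left) and Gapdh (right) control probe sets, 1 point per array, with a line at each group's mean of 3 arrays. The beta-actin ratio lies at 4.50 to 6.17 in conventional Sprague Dawley and at 2.47 to 2.69 in untreated Han Wistar livers.

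The Y-linked transcripts Uty and Eif2s3y were read on every array, at 103.5 to 265.2 and 287.6 to 478.9, and Xist, the transcript of the inactive X chromosome, did not exceed 12.1. By these transcripts the livers of both strains read as male. The male-predominant hydroxylase gene Cyp2c11 lay between 3730.0 and 5853.5 on all 12 arrays. Arrays of a group correlated with each other at 0.980 to 0.984 in Sprague Dawley and 0.985 to 0.988 in Han Wistar livers, and at 0.969 to 0.972 between the groups (Pearson r across probe sets, which are not independent). The first principal component of the 12 arrays, with 35.3% of the variance, separated the strains, and the second, with 22.8%, separated conventional from germ-free Sprague Dawley rats.

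Between the untreated strains 3257 probe sets were called (10.5%), of which 1508 were higher (4.86%) and 1749 lower (5.63%) in Sprague Dawley rats. Over 2-fold differences were found for 215 higher and 286 lower probe sets. The 3 animals of one strain all lay outside the range of the other for 8814 probe sets (28.4%). By gene, 1915 of 14217 were called (13.5%), 969 higher (6.82%) and 946 lower (6.65%), and the groups did not overlap for 4685 genes (33.0%). The number of called probe sets was 2098 without Sprague Dawley animal 7, 1897 without Han Wistar animal 1 and 1863 without Han Wistar animal 2.

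The direction of the difference depended on how bright a probe set was. Among the brightest 1% (311 probe sets with a mean signal of at least 2790) 122 were higher and 4 lower in Sprague Dawley rats, with a median of 0.33, whereas the median was -0.05 between the 75th and 90th percentiles. After quantile normalization, which gives each array the same distribution of values, 26 of the 311 were higher and 26 lower, with a median of 0.02. A change in abundant transcripts and a difference in scale at the top of the arrays cannot be told apart, and counts for groups of bright genes are therefore given both ways. The quantile-normalized background by gene was 6.89% higher and 6.02% lower. Calls were also rarer among dim probe sets. Below the 25th percentile 47 were higher and 40 lower of 7771, and between the 90th and 99th percentiles 475 and 335 of 2794. The shares of all genes are therefore a low background for lists of bright genes.

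**Figure D2:**
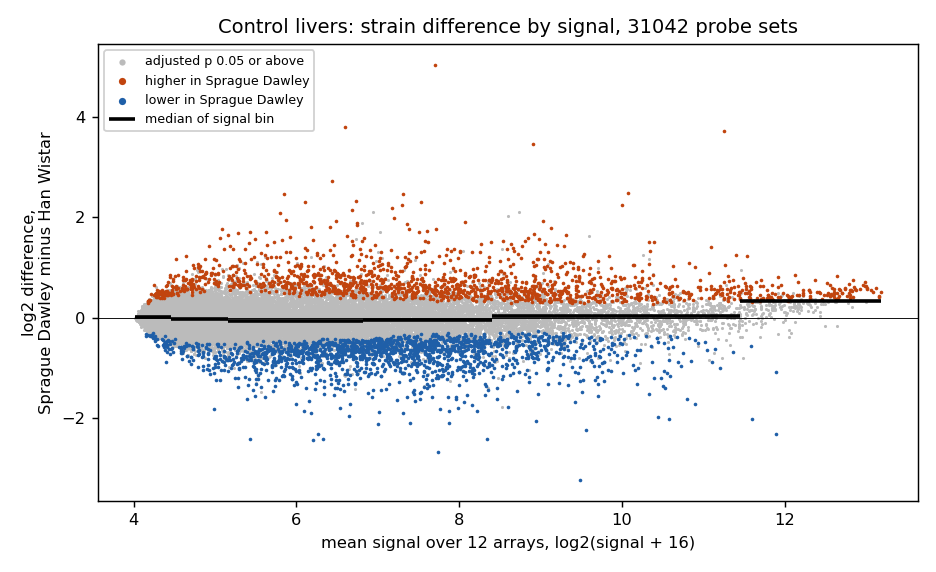
Log2 difference between untreated Sprague Dawley and Han Wistar livers (y axis) against mean signal of the 12 arrays on the log2(signal + 16) scale (x axis), 1 point per probe set, coloured where called by limma at an adjusted p under 0.05. Black lines mark the median of 6 signal bins, and the last, the brightest 1%, lies at 0.33.

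The largest differences toward Sprague Dawley rats held genes of electron transfer, peroxisomes, sterol export and serine synthesis. Fam111a, which encodes a nuclear protease of DNA replication, had signals of 147.3, 497.1 and 278.1 in Sprague Dawley and 6.4, 4 and 4.1 in Han Wistar livers. All 3 Han Wistar values lay below the median signal of all probe sets (19.67), and the difference was 3.81 ± 0.30 (limma adjusted p = 3.22e-05), or 5.58 with an offset of 1. Pxmp4, for a peroxisomal membrane protein, had signals of 1480.0, 863.8 and 1509.9 in Sprague Dawley and 88.4, 95.2 and 111.1 in Han Wistar livers. It differed by 3.47 ± 0.17 (limma adjusted p = 3.04e-07). For Por, whose product passes electrons to all microsomal P450 enzymes, the signals were 2239.4, 1922.4 and 1957.4 in Sprague Dawley and 419, 339.3 and 301.2 in Han Wistar livers. The difference in Por was 2.49 ± 0.12 (limma adjusted p = 3.04e-07), with a spread within each strain far smaller than the gap between them. Ptgis, prostacyclin synthase, had signals of 168.7, 128.1 and 164.7 in Sprague Dawley and 18.6, 7.9 and 3.7 in Han Wistar livers (difference 2.74 ± 0.20, limma adjusted p = 1.34e-05), or 4.04 with an offset of 1.

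Other genes of the 15 highest had smaller differences. Rab30, for a small GTPase of the Golgi, differed by 2.24 ± 0.32, Acsm2, for a mitochondrial medium-chain acyl-CoA ligase, by 2.16 ± 0.31, and Bco1, for the enzyme that splits beta-carotene into retinal, by 1.87 ± 0.18 (limma adjusted p = 0.00107, 0.00105 and 0.000124). Acot1, for a cytosolic acyl-CoA thioesterase, had signals of 668.2, 180.9 and 117.4 in Sprague Dawley and 47.9, 30.6 and 48.2 in Han Wistar livers. The difference for Acot1 was 2.18 ± 0.55 (limma adjusted p = 0.0229). Its highest array was animal 6, and without that animal the limma adjusted p was 0.071; it was 0.0575, 0.0822 and 0.054 without Han Wistar animals 1, 2 and 3.

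The largest differences toward Han Wistar rats began with Stac3, known from muscle excitation-contraction coupling, at 27.2, 40.4 and 46.7 in Sprague Dawley and 268.4, 464 and 919.4 in Han Wistar livers. Stac3 differed by -3.24 ± 0.36 (limma adjusted p = 0.000369). Pik3r1, the regulatory subunit p85 alpha of phosphoinositide 3-kinase, which couples the enzyme to insulin and growth factor receptors, gave 25.4, 36.9 and 85.1 in Sprague Dawley and 440.3, 278 and 422.2 in Han Wistar livers. It differed by -2.68 ± 0.29 (limma adjusted p = 0.000317). Tmem14a, for a small membrane protein, had signals of 5.2, 1.5 and 3 in Sprague Dawley and 93.4, 88.3 and 79.9 in Han Wistar livers, the Sprague Dawley values all below the median signal of all probe sets (difference -2.43 ± 0.26, limma adjusted p = 0.000312, or -4.48 with an offset of 1). Cyp4a8, of the fatty acid hydroxylase family, had signals of 14.4, 13.9 and 11.8 in Sprague Dawley and 150.5, 267.4 and 66.1 in Han Wistar livers. It differed by -2.42 ± 0.42 (limma adjusted p = 0.0034).

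Other called genes among the 15 largest decreases were Clca2 (-2.12 ± 0.44), Dhrs7l1 (-2.01 ± 0.37), the ubiquitin ligase gene Rnf6 (-1.97 ± 0.30), Zfpm1, a GATA cofactor (-1.88 ± 0.24), Cul4a, a ubiquitin ligase scaffold (-1.85 ± 0.36), Marveld1 (-1.81 ± 0.16) and Elapor1 (-1.80 ± 0.22). In 4 further genes the call was less stable. Obp3, an alpha-2u globulin, had signals of 493.7, 3518.8 and 684.9 in Sprague Dawley and 5012.2, 5713.4 and 5331.7 in Han Wistar livers, with animal 7 far above the other Sprague Dawley livers, and the difference of -2.31 ± 0.52 (limma adjusted p = 0.0126) lost its call without animal 8 (0.0565). Scd, the stearoyl-CoA desaturase that makes monounsaturated fatty acids, had signals of 273.4, 199.1 and 802.9 in Sprague Dawley and 1339.1, 3128.9 and 1222.8 in Han Wistar livers, and the limma adjusted p of 0.0405 rose to between 0.0625 and 0.158 when any of 5 animals, all but Sprague Dawley animal 8, was left out. Sds, serine dehydratase, had signals of 102.8, 188.9 and 264.3 in Sprague Dawley and 741, 742.5 and 712.1 in Han Wistar livers (difference -1.98 ± 0.48, limma adjusted p = 0.018), and the p was 0.0662 without Sprague Dawley animal 6, 0.0552 without Han Wistar animal 1 and 0.0559 without animal 2. Rtp4, an interferon-stimulated gene, had signals of 138.3, 262.6 and 27.2 in Sprague Dawley and 529.4, 542.7 and 427.9 in Han Wistar livers (difference -2.06 ± 0.45, limma adjusted p = 0.0106), and was no longer called when the 6 untreated arrays were fitted alone (0.0579). That fit also ended the calls of Obp3 (0.0517) and Trib3 (0.0673). With a robust prior Obp3, Scd, Sds, Acot1, Cyp2c12, Pdia4, Trib3 and Srebf1 also missed the threshold (limma adjusted p = 0.0549 to 0.128).

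A probe set that names no single gene had signals of 569.3, 466.4 and 977.0 in Sprague Dawley and 4.7, 2.1 and 4.9 in Han Wistar livers, a difference of 5.04 ± 0.37 (limma adjusted p = 1.34e-05). All 3 Han Wistar values lay below the median signal of all probe sets, and the size depended on the offset, at 7.08 with an offset of 1. The probe set was chosen after its values were seen. It was also called with the actin ratio as a covariate, with a difference of 7.19.

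The same strain difference was then read in the treated pair, each pair being fitted on its own 6 arrays. In the untreated pair 2554 probe sets were called (8.23%; 10.4% by gene), and in the treated pair 1676 (5.40%, 2.86% higher and 2.54% lower in Sprague Dawley; by gene 6.62%, 3.24% higher and 3.38% lower). Both pairs called 558, of which 506 had the same direction (1.63% of all; 2.10% by gene), 236 higher and 270 lower in Sprague Dawley, and 52 had opposite directions. The 506 were 19.8% of the calls in the untreated pair and 30.2% of those in the treated pair. Of the untreated pair's calls 80.3% had the same sign in the treated pair, against 61.4% of all probe sets. Across the 15523 probe sets at or above the median signal the log2 differences of the pairs correlated with r = 0.42 and rho = 0.47, a description across probe sets that are not independent. Leaving out 1 animal brought the 506 to between 191 (Han Wistar animal 2) and 316 for 11 of the 12 animals, and to 514 without conventional Sprague Dawley animal 6. The treated pair's actin ratio also differed by strain, and its part in the shared differences was not tested. A sequence difference between strains under a probe would be shared by both pairs, and was not tested either.

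**Figure D3:**
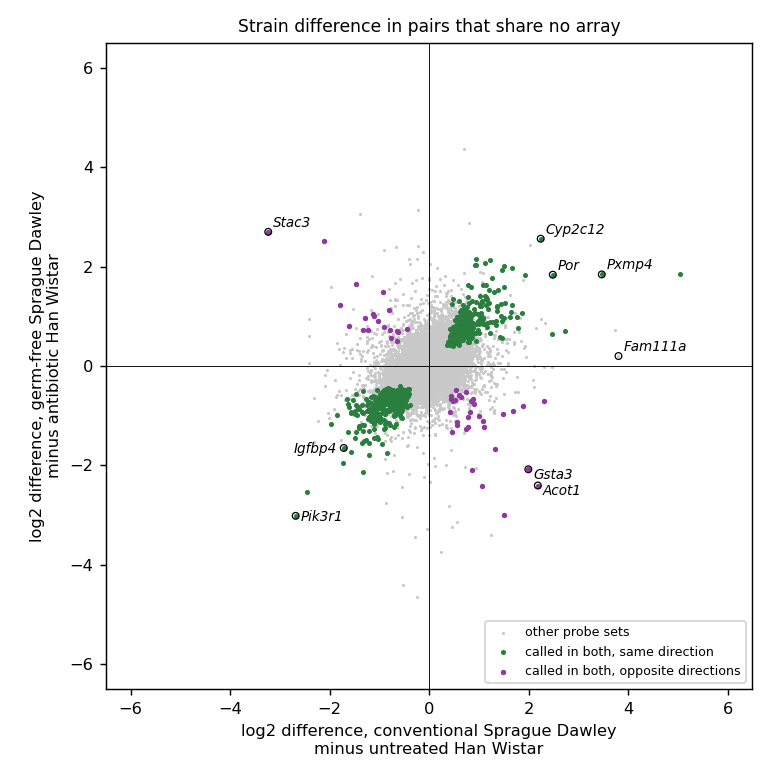
Log2 difference of each probe set between conventional Sprague Dawley and untreated Han Wistar livers (x axis) and between germ-free Sprague Dawley and antibiotic-treated Han Wistar livers (y axis), from fits that share no array. Green points (506) were called in both with the same direction and purple points (52) with opposite directions; named genes are circled.

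By a fixed rule, 10 genes had the largest differences in both pairs. Pik3r1 was at 25, 23.8 and 30.4 in the germ-free Sprague Dawley and 283.1, 255 and 475.2 in the antibiotic-treated Han Wistar livers, so that all 6 Sprague Dawley arrays lay below all 6 Han Wistar arrays. Its treated difference was -3.01 ± 0.21 (limma adjusted p = 0.00039). Por was at 1634.6, 1389.5 and 1345 and 371.9, 413.3 and 401.8 (difference 1.83 ± 0.10, limma adjusted p = 0.000151), again with no overlap between the strains over 12 arrays. Pxmp4 was at 417.2, 344.9 and 364.4 and 93.3, 93.3 and 92.2 (difference 1.84 ± 0.10, limma adjusted p = 0.000151), and its difference was smaller than in the untreated pair (limma adjusted p of the contrast between pairs = 0.00551).

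Igfbp4, a binding protein that holds insulin-like growth factors away from their receptor, had signals of 1167.2, 527.4 and 641 in Sprague Dawley and 2484.1, 1975.4 and 3000.9 in Han Wistar livers, and of 1225.1, 925.4 and 979 in the germ-free and 3503.4, 2984.4 and 3371.9 in the antibiotic-treated livers. Its differences were -1.72 ± 0.23 and -1.65 ± 0.13 in the untreated and treated pairs (limma adjusted p = 0.000832 and 0.000712). Car5a, the mitochondrial carbonic anhydrase that supplies bicarbonate to the urea cycle and gluconeogenesis, had signals of 412, 330.9 and 450.1 in Sprague Dawley and 183.8, 88.5 and 126.3 in Han Wistar livers. It differed by 1.51 ± 0.22 and 1.58 ± 0.18 (limma adjusted p = 0.0013 and 0.0038). Ugt2b1, which conjugates steroids and drugs with glucuronic acid, had signals of 2007.5, 2619.5 and 2602.7 in Sprague Dawley and 1302.2, 916.9 and 473.1 in Han Wistar livers. It differed by 1.51 ± 0.26 and 2.02 ± 0.12 (limma adjusted p = 0.00308 and 0.000198). Lower in Sprague Dawley rats in both pairs were Adrm1, a ubiquitin receptor of the proteasome (-1.57 ± 0.27 and -1.72 ± 0.12), and Slc35c2, a Golgi nucleotide sugar transporter (-1.49 ± 0.30 and -1.45 ± 0.18).

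The remaining genes of this rule had wider spreads. Angptl4, a secreted inhibitor of lipoprotein lipase, had signals of 476.9, 472.2 and 1328.9 in Sprague Dawley and 183.8, 164.7 and 264.4 in Han Wistar livers, and its difference of 1.67 ± 0.38 (limma adjusted p = 0.0133) missed the threshold without Han Wistar animal 2 (0.0554); the treated difference was 1.97 ± 0.30 (limma adjusted p = 0.0109). Cyp2c12, the steroid sulfate hydroxylase gene predominant in female rat liver, had signals of 2643.6, 1334.1 and 2327.8 in Sprague Dawley and 187.3, 409.9 and 901.8 in Han Wistar livers, and of 403.7, 1364.4 and 2045.9 in germ-free and 290.1, 142.2 and 104.5 in antibiotic-treated livers. The differences were 2.24 ± 0.58 and 2.56 ± 0.54 (limma adjusted p = 0.0251 and 0.0316), and the first lost its call without Sprague Dawley animal 6 or 8 (0.0769, 0.08) or Han Wistar animal 1 or 2 (0.109, 0.0728).

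**Figure D4:**
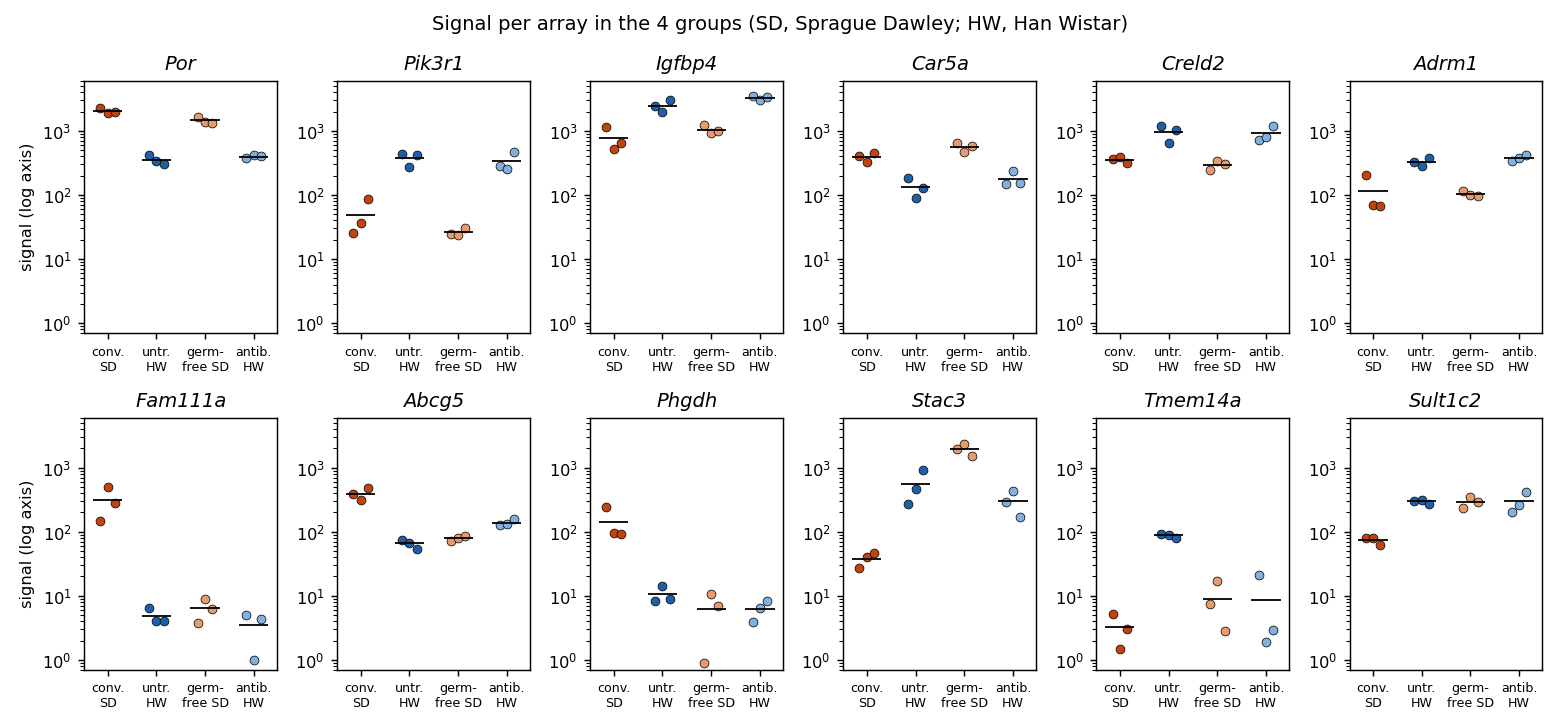
Signal of 12 genes on each array (log axis), 3 arrays per group, with a line at the group mean. The upper panels hold genes with a like strain difference in both pairs, such as Por and Pik3r1, and the lower ones genes whose strain difference differed between the pairs, such as Fam111a and Stac3.

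For other genes the strain difference was not the same in the 2 pairs. A contrast of the pairs over all 12 arrays called 496 probe sets (1.60%; 2.20% by gene). These included 302 of the 3257 called in the untreated pair (9.27%), 164 higher and 138 lower in Sprague Dawley controls, and 259 of the 302 had the opposite sign in the treated pair. The untreated difference is itself part of the contrast. The 9.27% and the signs thus follow in part from how the 302 were chosen, and cannot be compared with the 1.60%. The count of 496 was 275 without germ-free animal 3, 326, 267 and 306 without Han Wistar animals 1, 2 and 3, and 280 and 317 without antibiotic-treated animals 13 and 15. The contrast mixes strain with the 2 treatments, which this comparison does not separate.

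Fam111a was high only in the conventional Sprague Dawley livers. It was at 3.7, 9 and 6.3 in the germ-free and 5, 1 and 4.3 in the antibiotic-treated livers, as low as in the untreated Han Wistar livers (limma adjusted p of the contrast = 0.00113). Stac3 was at 1935.4, 2319.4 and 1518.5 in the germ-free and 293.1, 424.7 and 172.2 in the antibiotic-treated livers, a treated difference of 2.70 ± 0.28 against -3.24 ± 0.36 (limma adjusted p of the contrast = 0.000147). Gsta3, an alpha-class glutathione transferase, had signals of 530.0, 229.9 and 367.1 in Sprague Dawley and 79.8, 121.3 and 46 in Han Wistar livers and of 1.7, 4.8 and 1.6 in the germ-free and 77.1, 48.4 and 65.2 in the antibiotic-treated livers. Its difference turned from 1.99 ± 0.29 to -2.08 ± 0.19 (limma adjusted p of the contrast = 0.000461).

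Tmem14a was high only in the untreated Han Wistar livers, since the antibiotic-treated ones were at 21.2, 1.9 and 2.9 (limma adjusted p of the contrast = 0.00549). Marveld1, Elapor1 and the sulfotransferase gene Sult1c2 were lower in conventional Sprague Dawley rats, by -1.81 ± 0.16, -1.80 ± 0.22 and -1.80 ± 0.21, and differed by 0.34 ± 0.17, 1.22 ± 0.24 and 0.01 ± 0.24 in the treated pair (limma adjusted p of the contrast = 0.000511, 0.000511 and 0.00877). Clca2 differed by -2.12 ± 0.44 and 2.51 ± 0.47 in the 2 pairs (limma adjusted p of the contrast = 0.00285).

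Several genes of protein folding in the endoplasmic reticulum were lower in Sprague Dawley rats. When unfolded proteins build up there, the factors ATF6 and XBP1 bind short promoter elements and raise chaperone genes, while a second arm, through ATF4, raises amino acid synthesis genes. In a list of 21 genes of both arms, 6 were lower and 4 higher in Sprague Dawley rats (list median -0.24, against -0.01 for all genes), and 8 to 10 were called when any 1 animal was left out. After quantile normalization 9 were lower and 4 higher.

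The promoters of several of these genes carry such elements, and the windows are shown because the genes with and without a strain difference can be set side by side. The 250 bases before the start of each RefSeq promoter (GRCr8) were searched on both strands for 2 elements. The first, the endoplasmic reticulum stress element, is CCAAT followed by any 9 bases and CCACG, and its second form is ATTGG followed by any 1 base and CCACG. They matched 22 (0.0657%) and 14 (0.0418%) of 33469 promoters. Among the list's genes and Hyou1, 19 had a promoter in the table. Of these, 4 held the first element and 2 the second, and none held both. Not all windows are printed. Those left out are Xbp1 (chr14:84604528-84604607) and a further match of the first element in Hsp90b1 (chr7:23012420-23012499). Capitals mark the match, each window has 80 bases, 5′ to 3′ on the gene's strand:
Creld2, chr7:121789209-121789288 (+): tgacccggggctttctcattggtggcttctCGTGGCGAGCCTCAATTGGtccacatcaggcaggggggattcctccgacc
Hyou1, chr8:53602660-53602739 (+): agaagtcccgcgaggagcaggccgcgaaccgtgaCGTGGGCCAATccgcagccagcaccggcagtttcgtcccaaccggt
Hyou1, chr8:53602760-53602839 (+): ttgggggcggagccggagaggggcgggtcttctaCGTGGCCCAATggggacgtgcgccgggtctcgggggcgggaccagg
Herpud1, chr19:10614786-10614865 (-): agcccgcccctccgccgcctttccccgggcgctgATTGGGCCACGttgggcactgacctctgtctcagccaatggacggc
Hspa5, chr3:38452936-38453015 (+): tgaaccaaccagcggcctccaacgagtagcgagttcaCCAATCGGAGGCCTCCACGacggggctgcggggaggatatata
Hsp90b1, chr7:23012316-23012395 (-): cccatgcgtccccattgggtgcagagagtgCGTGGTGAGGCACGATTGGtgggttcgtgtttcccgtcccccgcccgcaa

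A match is a description of the letters only, and genes with a matching promoter were found both among the called and the uncalled. Creld2, which encodes a disulfide isomerase of the reticulum, had signals of 359.9, 387.7 and 319.2 in Sprague Dawley and 1183.9, 640.9 and 1044.6 in Han Wistar livers, with no overlap (difference -1.35 ± 0.22, limma adjusted p = 0.00218), and its treated difference was -1.54 ± 0.19 (limma adjusted p = 0.00491). Hyou1, a large chaperone that helps BiP to release its nucleotide, had signals of 202.2, 198.5 and 201.7 in Sprague Dawley and 660.9, 409.6 and 728.6 in Han Wistar livers, again without overlap (differences -1.47 ± 0.19 and -1.33 ± 0.17, limma adjusted p = 0.000738 and 0.00525). Hyou1 lies outside the list and was named after its values were seen. Herpud1, a part of the machinery that removes misfolded proteins, had signals of 647.7, 922.1 and 926.8 in Sprague Dawley and 2361.3, 1564.6 and 1867.6 in Han Wistar livers (difference -1.20 ± 0.22, limma adjusted p = 0.00493), and a treated difference of 0.01 ± 0.22 (limma adjusted p = 0.988). Hspa5, which encodes BiP, the main chaperone of the reticulum, had signals of 3882.1, 3871.9 and 3296.3 in Sprague Dawley and 4379.2, 3925.6 and 4787.3 in Han Wistar livers and a difference of -0.24 ± 0.15 (limma adjusted p = 0.354), and after quantile normalization of -0.62 (0.00781). Hsp90b1, its partner chaperone GRP94, differed by -0.21 ± 0.13 (limma adjusted p = 0.397; after quantile normalization -0.42 and 0.0313). Xbp1, which also held the first element, differed by 0.04 ± 0.19 (limma adjusted p = 0.939).

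Further folding genes of the list were lower. Dnajb9, a J-protein that serves BiP, had signals of 428.3, 384.8 and 362.3 in Sprague Dawley and 1110.7, 1116.1 and 1346.8 in Han Wistar livers. The difference for Dnajb9 was -1.56 ± 0.19 (limma adjusted p = 0.000525). Sdf2l1, a co-chaperone of the reticulum, differed by -1.09 ± 0.20, and Pdia4, a disulfide isomerase, by -1.21 ± 0.31 (limma adjusted p = 0.0045 and 0.0228). The p for Pdia4 rose to 0.0906 without Sprague Dawley animal 7 and to 0.0634 and 0.0946 without Han Wistar animals 1 and 3. Han Wistar animal 2 had the lowest signal of its group for Hyou1, Creld2, Sdf2l1, Pdia4 and Herpud1. Creld2, Dnajb9, Sdf2l1 and Pdia4 were called in both pairs in the same direction, 4 of the list's 21 genes, against 2.10% of all genes. The list is bright, with a median signal of 669 and 1 of 21 genes below the median of all probe sets. As dim genes are rarely called, the 2 shares cannot be compared directly.

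Of the 4 amino acid synthesis genes of the list 3 were higher, and Psph, the third enzyme of serine synthesis, was not called, with a difference of -0.05 ± 0.16 (limma adjusted p = 0.897). Phgdh, the first enzyme of serine synthesis, had signals of 244.8, 94 and 92.5 in Sprague Dawley and 8.2, 14.4 and 8.8 in Han Wistar livers, Asns, asparagine synthetase, of 312.1, 95.2 and 96.5 in Sprague Dawley and 24.2, 13.6 and 12.9 in Han Wistar livers, and Psat1, the second enzyme of serine synthesis, of 237.3, 75.1 and 66.9 in Sprague Dawley and 18.6, 13.5 and 16.4 in Han Wistar livers. Animal 6 was the highest for each of these 3 genes. The differences were 2.47 ± 0.29, 2.30 ± 0.33 and 1.95 ± 0.33 (limma adjusted p = 0.00046, 0.0011 and 0.003), and the calls held without animal 6. Trib3, a pseudokinase that ATF4 induces, differed by 1.45 ± 0.40 (limma adjusted p = 0.0324; 0.0997 without Sprague Dawley animal 6, 0.0924 and 0.121 without Han Wistar animals 2 and 3). Sesn2, another gene known as an ATF4 target, was lower, at 84.6, 107.7 and 121.6 in Sprague Dawley and 209, 219 and 205.1 in Han Wistar livers. The difference for Sesn2 was -0.92 ± 0.14 (limma adjusted p = 0.00146). In the germ-free and antibiotic-treated livers Phgdh was at 0.9, 10.8 and 6.9 and at 3.9, 6.4 and 8.3, below the median signal, and the contrast between pairs was called for Phgdh and Asns (limma adjusted p = 0.00902 and 0.026) and missed for Psat1 (0.0867). For Sesn2 the difference turned to 1.49 ± 0.14 in the treated pair (limma adjusted p of the contrast = 0.000124).

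Cholesterol synthesis genes were higher in Sprague Dawley controls. Of 18 on the array 13 were higher and none lower, with a list median of 0.75, and 11 were higher after quantile normalization (median 0.75). Without Han Wistar animal 3 the count was 7. Idi1, which isomerises the isoprenoid unit, had signals of 1636.8, 1288.3 and 1037.9 in Sprague Dawley and 334.5, 483 and 300.3 in Han Wistar livers, and Cyp51, which removes the methyl group of lanosterol, of 2965, 2831.1 and 2618.8 in Sprague Dawley and 961.9, 1208.4 and 788.6 in Han Wistar livers. Neither gene overlapped between strains, and the differences were 1.79 ± 0.23 and 1.51 ± 0.17 (limma adjusted p = 0.000668 and 0.000333). Lss, which closes the sterol rings, differed by 1.52 ± 0.21, and Dhcr7, the last enzyme of the pathway, by 1.03 ± 0.17 (limma adjusted p = 0.000901 and 0.00262).

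In the treated pair none of the 18 was higher and 3 were lower in Sprague Dawley rats (list median -0.35), and for 8 of the 18 the contrast between pairs was called. Cyp51 was at 469.6, 631.4 and 460.1 in germ-free and 824.9, 621.7 and 885.2 in antibiotic-treated livers (difference -0.56 ± 0.16, limma adjusted p of the contrast = 0.000906). The conventional Sprague Dawley livers thus had the highest signals of the 4 groups for this gene.

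The half-transporters that export sterols into bile were higher as well. Abcg5 had signals of 385.7, 311.3 and 480.3 in Sprague Dawley and 75.3, 66.7 and 54.1 in Han Wistar livers and Abcg8 of 101.6, 77.5 and 134.5 in Sprague Dawley and 15, 12.8 and 8.6 in Han Wistar livers, with differences of 2.32 ± 0.15 and 2.08 ± 0.19 (limma adjusted p = 7.78e-06 and 0.000111). In the germ-free and antibiotic-treated livers Abcg5 was at 71.1, 78.8 and 85.3 and 126.5, 131 and 155.7, a difference of -0.70 ± 0.13 (limma adjusted p of the contrast = 6.63e-05). In the treated pair 2 of 15 bile acid and sterol transport genes were lower and none higher. In the untreated pair 4 of the 15 were higher and 1 lower (median 0.47), and they included the uptake carrier Slco1a4 (1.41 ± 0.25, limma adjusted p = 0.00345) and, lower, the aminophospholipid flippase Atp8b1 (-1.04 ± 0.14, limma adjusted p = 0.000738).

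Genes of bile acid synthesis were called in both directions. Cyp7a1, the rate-limiting enzyme, had overlapping signals of 439, 365.6 and 259.5 in Sprague Dawley and 375.4, 462.3 and 229.8 in Han Wistar livers. The difference for Cyp7a1 was 0.02 ± 0.53 (limma adjusted p = 0.991). Of 14 genes 4 were higher and 1 lower (median 0.22), among them Cyp27a1, which starts the alternative route, at 0.70 ± 0.12 (limma adjusted p = 0.003). With quantile normalization 1 was higher and 3 lower, and leaving out any 1 animal left 2 or 3 of the 5 calls.

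Genes of fatty acid oxidation were higher where called. Of 22, 7 were higher and none lower (median 0.26), 6 after quantile normalization, and 4 without Han Wistar animal 1 or 2. Cpt1a, the carnitine palmitoyltransferase that admits fatty acids to mitochondria, had signals of 4396.7, 3824.4 and 4085.7 in Sprague Dawley and 2000.1, 1773.7 and 1429.8 in Han Wistar livers. The difference for Cpt1a was 1.25 ± 0.13 (limma adjusted p = 0.00028). Cpt2, its inner membrane partner, differed by 1.04 ± 0.16, Slc25a20, the carnitine carrier, by 0.72 ± 0.12, and Pex11a, which drives peroxisome division, by 1.27 ± 0.26 (limma adjusted p = 0.00167, 0.00239 and 0.00838). None of these 4 genes was called in the treated pair, where 4 of the 22 were lower and none higher, and the contrast between pairs was called for all 4 (limma adjusted p = 0.00533, 0.0444, 0.0091 and 0.0133).

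Genes of fatty acid synthesis were called in both directions. Of 18, 4 were higher and 3 lower (median 0.03), and leaving out 1 animal gave between 2 (Sprague Dawley animal 7) and 5 calls, with 4 without Sprague Dawley animal 6 and 3 without each Han Wistar animal. Me1, malic enzyme, had signals of 662.7, 436.5 and 461.8 in Sprague Dawley and 234.3, 180.2 and 180.0 in Han Wistar livers (difference 1.31 ± 0.24, limma adjusted p = 0.0045), and Elovl5, an elongase of polyunsaturated fatty acids, of 3798, 3656.5 and 3935.7 in Sprague Dawley and 2259.6, 2162.9 and 2522.7 in Han Wistar livers. The difference for Elovl5 was 0.71 ± 0.11 (limma adjusted p = 0.00182). Elovl5 was also higher in the treated pair (0.97 ± 0.13, limma adjusted p = 0.0063), and its mean over several probe sets was not called (0.248). Srebf1, the main factor for these genes, was lower in Sprague Dawley rats at 171.4, 154 and 110.4 in Sprague Dawley and 271.3, 632.6 and 496.5 in Han Wistar livers (difference -1.52 ± 0.39, limma adjusted p = 0.0236), a call lost without Sprague Dawley animal 7 or 8 (0.0572, 0.0877) or Han Wistar animal 2 or 3 (0.101, 0.0775).

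Enzymes of drug metabolism were mostly higher where called, but many are bright. Of 24 P450 genes and their partners 9 were higher and 1 lower (median 0.32), and with quantile normalization 2 were higher and 2 lower. The 10 calls became 5 without Sprague Dawley animal 8, 4 without Han Wistar animal 1 and 3 without animal 2. Cyp2e1, which oxidises ethanol and small solvents, differed by 0.58 ± 0.11 (limma adjusted p = 0.00614; 0.471 after quantile normalization) and Cyp3a2, a testosterone hydroxylase of male rats, by 0.56 ± 0.12 (limma adjusted p = 0.0108; 0.0521 without Han Wistar animal 2; 0.069 after quantile normalization). The 1 lower gene, Cyp3a9, had signals of 174.2, 469.5 and 331.2 in Sprague Dawley and 974.9, 1250.4 and 827.1 in Han Wistar livers (difference -1.68 ± 0.28, limma adjusted p = 0.00235), lower in all 3 Sprague Dawley livers. Nr1i3, the xenobiotic receptor CAR, had signals of 281.6, 485.1 and 478.2 in Sprague Dawley and 162.1, 160.5 and 161.4 in Han Wistar livers. The difference for Nr1i3 was 1.24 ± 0.26 (limma adjusted p = 0.00873). Of 13 nuclear receptors 2 were higher and 4 lower (median -0.17), the latter including the sterol receptor Nr1h3 (-0.65 ± 0.13, limma adjusted p = 0.00692), with 2 calls without Sprague Dawley animal 7 and 3 without Han Wistar animal 1. Of the 13, 2 were higher and none lower in the treated pair.

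The carboxylesterases Ces2c and Ces1c, which hydrolyse esters and amides, differed by 1.51 ± 0.23 and 0.71 ± 0.10 (limma adjusted p = 0.00157 and 0.00107), among 5 higher and 1 lower of 18 other oxidation and hydrolysis genes (median 0.51), of which 4 were lower and none higher in the treated pair. These 6 calls became 3 without Sprague Dawley animal 8 or Han Wistar animal 1 or 3. Of 18 conjugating enzymes 4 were higher and 4 lower (median 0.07). They included Sult1b1 (0.86 ± 0.12, limma adjusted p = 0.000956) and, in the other direction, Sult1c2, at 80.8, 80.1 and 61.4 in Sprague Dawley and 306.1, 310.1 and 270.8 in Han Wistar livers. The difference for Sult1c2 was -1.80 ± 0.21 (limma adjusted p = 0.000442). The 8 calls became 5 without Sprague Dawley animal 6 or 7 or Han Wistar animal 3, and 4 without Han Wistar animal 1 or 2.

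Antioxidant genes were lower for 3 of 17 and higher for 2 (median 0.12). Nfe2l2, which encodes the factor NRF2 itself, had signals of 549.9, 530.3 and 473.4 in Sprague Dawley and 978, 1253.8 and 1125.3 in Han Wistar livers (differences -1.08 ± 0.14 and, in the treated pair, -0.69 ± 0.15; limma adjusted p = 0.000678 and 0.0343). Gsr, glutathione reductase, had signals of 101.5, 70.5 and 85.9 in Sprague Dawley and 194.4, 184.4 and 195.2 in Han Wistar livers (differences -1.03 ± 0.17 and -1.46 ± 0.19, limma adjusted p = 0.0028 and 0.00627), and Gclm, a subunit of the enzyme that starts glutathione synthesis, differed by -0.79 ± 0.16 and -0.63 ± 0.13 (limma adjusted p = 0.00681 and 0.0262). These 3 genes were lower in Sprague Dawley rats in both pairs, whereas Srxn1, sulfiredoxin, was higher, by 1.20 ± 0.24 (limma adjusted p = 0.00689), but not when its probe sets were averaged (0.0851). Of 19 glutathione transferase genes 2 were higher and 4 lower (median -0.07; 1 and 4 after quantile normalization), among them Gstm2 (-1.01 ± 0.18) and Gstt2 (-0.80 ± 0.16; limma adjusted p = 0.00387 and 0.00679).

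Genes known to differ between male and female rat liver were called in both directions as deposited. Of 10 male-predominant genes, many of them bright, 2 were higher and 3 lower (median 0.16), and after quantile normalization none was higher and 3 were lower (median -0.20). The lower ones as deposited included the urinary protein gene Mup5 at 543.9, 1062.9 and 514.5 in Sprague Dawley and 1940.8, 2011.7 and 1363.3 in Han Wistar livers. The difference for Mup5 was -1.36 ± 0.27 (limma adjusted p = 0.00683). These 5 calls became 3 without Sprague Dawley animal 8 or Han Wistar animal 1 and 2 without Han Wistar animal 2. Cyp2c11 differed by 0.22 ± 0.12 (limma adjusted p = 0.29), and of 9 female-predominant genes 2 were higher and 1 lower (1 and 1 after quantile normalization), with 1 call without Sprague Dawley animal 8 or Han Wistar animal 1 or 2. Uty was lower in Sprague Dawley rats, at 123.3, 103.5 and 107 in Sprague Dawley and 225.7, 265.2 and 200.1 in Han Wistar livers (differences -0.95 ± 0.12 and -0.52 ± 0.11, limma adjusted p = 0.000591 and 0.0307), and Eif2s3y differed by -0.25 ± 0.13 (limma adjusted p = 0.269).

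Growth hormone acts on the liver to release insulin-like growth factor 1, which travels with binding proteins. Of 14 genes of this axis 1 was higher and 1 lower (median 0.29), and without Sprague Dawley animal 6 the count was 4. Igfbp3, the main carrier in blood, had signals of 876.2, 588.3 and 743.9 in Sprague Dawley and 356.2, 270.1 and 328.2 in Han Wistar livers. The untreated and treated differences of Igfbp3 were 1.16 ± 0.14 and 0.79 ± 0.09 (limma adjusted p = 0.000442 and 0.00419). Igfals, the acid-labile subunit of the same complex, went the other way, at 808.5, 560.3 and 618.7 in Sprague Dawley and 1717.5, 1551.4 and 2048.9 in Han Wistar livers (difference -1.41 ± 0.18, limma adjusted p = 0.000678), with no overlap between strains.

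Immune genes that passed were lower in untreated Sprague Dawley livers. Of 25 interferon-stimulated genes 6 were lower and none higher (median -0.35), also after quantile normalization. Without Han Wistar animal 1, 3 were lower, and without Sprague Dawley animal 6, 3 were lower and 1 higher. In the treated pair 2 of the 25 were higher and none lower (median -0.09), and no member was called in both pairs. Psmb9, an immunoproteasome subunit that cuts peptides for presentation, had signals of 81.8, 126 and 119.6 in Sprague Dawley and 243.4, 269.4 and 252.7 in Han Wistar livers (difference -1.13 ± 0.16, limma adjusted p = 0.000976), and Cxcl10, a T-cell chemokine, of 8.4, 11 and 11.9 in Sprague Dawley and 51.5, 36.7 and 23.4 in Han Wistar livers. The difference for Cxcl10 was -0.98 ± 0.20 (limma adjusted p = 0.00806). Of 15 class I antigen presentation genes 4 were lower (median -0.61), with 5 lower and 2 higher without Han Wistar animal 3. The 4 included the peptide transporter genes Tap1 and Tap2 (-0.79 ± 0.13 and -0.67 ± 0.14) and Tapbp (-0.90 ± 0.18; limma adjusted p = 0.00242, 0.00965 and 0.00819). Of the 15, 4 were lower and none higher in the treated pair, with 1 called in both pairs. Of 10 class II genes 2 were lower (median -0.42), 1 without Sprague Dawley animal 6 or 8 or Han Wistar animal 1 or 2. Cd74, the class II invariant chain, was lower at 425.6, 641.9 and 401.8 in Sprague Dawley and 925.2, 911.7 and 772.1 in Han Wistar livers. The untreated and treated differences of Cd74 were -0.83 ± 0.18 and -0.90 ± 0.15 (limma adjusted p = 0.00933 and 0.0153).

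Plasma proteins made by the liver depended on the scaling. Of 25 acute phase genes 7 were higher and none lower (median 0.38), and with quantile normalization 1 was higher and 1 lower; the 7 calls became 4 without Sprague Dawley animal 8 and 3 without Han Wistar animal 1 or 2. A2m, an acute phase protease inhibitor in rats, had signals of 426.1, 201 and 157.9 in Sprague Dawley and 71.4, 57.2 and 49.3 in Han Wistar livers and kept its call under quantile normalization (difference 1.77 ± 0.28, limma adjusted p = 0.00178; treated difference 0.98 ± 0.18, limma adjusted p = 0.0209). Of 23 complement and coagulation genes 8 were higher and 1 lower (median 0.26), and with quantile normalization 2 and 3. The 9 calls became 4 without Sprague Dawley animal 7 or 8 or Han Wistar animal 1, and 3 without Han Wistar animal 2. F5, coagulation factor V, differed by 1.05 ± 0.14, and C6, a terminal complement component, by -1.25 ± 0.27 (limma adjusted p = 0.000738 and 0.0106).

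Clock genes were called at a share near that of all genes (13.5%). Of 17, 2 were lower and none higher (median -0.20), or 2 and 1 after quantile normalization. There was 1 call without Sprague Dawley animal 7 or 8 or Han Wistar animal 2, and 3 without Sprague Dawley animal 6. In the treated pair 4 of the 17 were higher and 2 lower, against 3.24% and 3.38% of all genes. Per2, a repressor of the clock, had signals of 94.6, 44.5 and 16.3 in Sprague Dawley and 129.4, 174.8 and 234.4 in Han Wistar livers, a wide spread among Sprague Dawley animals (difference -1.67 ± 0.37, limma adjusted p = 0.0122; 0.0519 without Han Wistar animal 3). Clock, a partner of Bmal1, differed by -0.41 ± 0.10 and -0.56 ± 0.11 in the untreated and treated pairs (limma adjusted p = 0.0221 and 0.0232; 0.0587 to 0.0971 without Sprague Dawley animal 7 or 8 or Han Wistar animal 1 or 2). Nr1d1, the repressor REV-ERB alpha, varied more within Han Wistar rats, at 13.9, 21.9 and 27.4 in Sprague Dawley and 26.4, 63.3 and 143.6 in Han Wistar livers (difference -1.15 ± 0.35, limma adjusted p = 0.0545; 0.00718 without Han Wistar animal 1). Bmal1 and Dbp, the activator and an output of the clock, differed by -0.20 ± 0.18 and 0.21 ± 0.24 (limma adjusted p = 0.585 and 0.679). In the treated pair Nr1d1 and Dbp were higher in Sprague Dawley rats, by 1.81 ± 0.19 and 1.76 ± 0.24 (limma adjusted p of the contrast = 0.00957 and 0.0419). As the time of collection is not given, strain and time of day cannot be told apart for these genes.

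The glucocorticoid list holds the receptor gene Nr3c1 itself beside genes that glucocorticoids induce. Of its 13 genes 4 were higher and 3 lower (median -0.31). Fkbp5, a chaperone of the receptor, had signals of 132.9, 250.7 and 227.7 in Sprague Dawley and 89.5, 74.1 and 96.1 in Han Wistar livers (difference 1.06 ± 0.19, limma adjusted p = 0.00425), and Klf9, a transcription factor, of 1116.3, 1017.8 and 1280.6 in Sprague Dawley and 467.6, 419.9 and 657.2 in Han Wistar livers (differences 1.14 ± 0.20 and 1.39 ± 0.19, limma adjusted p = 0.00314 and 0.00713), though the mean of Klf9 probe sets was not called (0.276). Tat, tyrosine aminotransferase, was lower at 723.1, 650.1 and 794.4 in Sprague Dawley and 1663.4, 1600.0 and 1450.5 in Han Wistar livers (difference -1.11 ± 0.14, limma adjusted p = 0.000668), and higher in the treated pair (difference 1.01 ± 0.16, limma adjusted p of the contrast = 0.000314).

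Amino acid breakdown and urea cycle genes had 7 higher and 4 lower of 26 (median 0.15), 4 and 4 with quantile normalization. Besides Tat and Sds, the lower ones were Hal, histidine ammonia lyase (-1.06 ± 0.21), and Gldc of the glycine cleavage system (-1.14 ± 0.20; limma adjusted p = 0.00607 and 0.00357). Of 16 genes of glucose and insulin 4 were higher and 3 lower (median 0.16), with 4 calls without Sprague Dawley animal 7 or 8 or Han Wistar animal 3 and 2 without Han Wistar animal 1 or 2. Pfkfb1, which sets the level of the glycolysis activator fructose 2,6-bisphosphate, had signals of 497.9, 653.1 and 656.3 in Sprague Dawley and 217.3, 198.5 and 179.2 in Han Wistar livers (difference 1.52 ± 0.19, limma adjusted p = 0.000525), and Khk, fructokinase, differed by -0.50 ± 0.10 (limma adjusted p = 0.00716).

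Dividing-cell genes were higher in Sprague Dawley rats where called, though most were dim. Of 19, 7 were higher and none lower (median 0.49), 15 of the 19 lay below the median signal, and 4 were called without Sprague Dawley animal 8 or Han Wistar animal 1 or 2. Ccnd1, cyclin D1, had signals of 444.9, 417.8 and 347.8 in Sprague Dawley and 101.2, 184.7 and 225.2 in Han Wistar livers. The difference for Ccnd1 was 1.23 ± 0.22 (limma adjusted p = 0.00387). Cdk1, the kinase of mitosis, had signals of 14.6, 22.1 and 30.0 in Sprague Dawley and 0.8, 5.8 and 0.4 in Han Wistar livers, and Top2a, the topoisomerase of replicating cells, of 22.3, 33.6 and 28 in Sprague Dawley and 2.4, 9.8 and 4.6 in Han Wistar livers (differences 1.05 ± 0.17 and 1.03 ± 0.18, or 3.12 and 2.28 with an offset of 1; limma adjusted p = 0.00182 and 0.00364). Each Sprague Dawley liver lay above each Han Wistar liver for all 3 genes. The summed signal of the 19 genes was 995 to 1068 in Sprague Dawley and 654 to 700 in Han Wistar livers. Ccnd1 alone gave 347.8 to 444.9 and 101.2 to 225.2 of these sums, and 12 of the 19 genes were not called. In the treated pair 1 of the 19 was higher and none lower (median 0.03). The sums there were 608 to 666 in germ-free Sprague Dawley and 572 to 601 in antibiotic-treated Han Wistar livers.

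Markers of the other liver cells were read as a check of tissue makeup; in bulk tissue fewer cells of a type and less RNA per cell cannot be told apart. Of 13 sinusoidal and other endothelial markers 7 were lower and none higher in Sprague Dawley rats (median -0.63), with a summed signal of 1184 to 1471 against 1764 to 3076. After quantile normalization 4 were lower. The count was 2, 4 and 3 without Sprague Dawley animals 6, 7 and 8, and 1 and 4 without Han Wistar animals 1 and 3. Eng, endoglin, had signals of 121.9, 126.9 and 96.7 in Sprague Dawley and 264.3, 209.4 and 213 in Han Wistar livers, and Fcgr2b, an inhibitory Fc receptor of sinusoidal cells, of 121.8, 183.4 and 169.2 in Sprague Dawley and 449.3, 254.1 and 286.3 in Han Wistar livers (differences -0.90 ± 0.12 and -0.97 ± 0.22, limma adjusted p = 0.000707 and 0.0153), the latter call ending without Sprague Dawley animal 6 (0.0546) or Han Wistar animal 1 (0.0654). In the treated pair limma called none of the 13, and 2 had an unadjusted p under 0.05. Smad6, an inhibitor of bone morphogenetic protein signalling, was also lower, at 28.1, 21 and 21.5 in Sprague Dawley and 60.2, 64.2 and 51.7 in Han Wistar livers (difference -0.92 ± 0.14, limma adjusted p = 0.00168), among 2 higher and 2 lower of 14 iron handling genes; those 4 became 2 without Sprague Dawley animal 7 or Han Wistar animal 1.

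Of 15 stellate cell and fibroblast markers 2 were higher (median 0.18), with a summed signal of 3709 to 4325 in Sprague Dawley and 2460 to 3152 in Han Wistar livers. They were the collagens Col1a2, at 274.7, 179 and 281.9 in Sprague Dawley and 83, 84.9 and 100.7 in Han Wistar livers, and Col3a1, at 1570.7, 1604.1 and 1851.2 in Sprague Dawley and 895.7, 696.3 and 1033.9 in Han Wistar livers (differences 1.29 ± 0.20 and 0.94 ± 0.14, limma adjusted p = 0.00163 and 0.0014). Both were also higher in the treated pair (0.88 ± 0.19 and 0.51 ± 0.12, limma adjusted p = 0.0357 and 0.0453). Of the summed signals above, Col3a1 alone gave 1570.7 to 1851.2 in Sprague Dawley and 696.3 to 1033.9 in Han Wistar livers. Of the 15 markers 13 were not called in the untreated pair. Of 11 Kupffer cell markers 2 were higher (median 0.34), 1 of them Clec4f at 691.2, 1082.6 and 811.2 in Sprague Dawley and 547, 408.7 and 385.7 in Han Wistar livers (difference 0.91 ± 0.17, limma adjusted p = 0.00529), with 1 call without Sprague Dawley animal 8 or Han Wistar animal 2 or 3.

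Of 12 hepatocyte markers 11 were higher (median 0.52), but 1 after quantile normalization (median 0.03), and 5, 5 and 4 without Sprague Dawley animal 8 and Han Wistar animals 1 and 2. Alb, albumin, had signals of 8168.6, 7861.8 and 8241.1 in Sprague Dawley and 4888.9, 4236.7 and 5390.3 in Han Wistar livers, and Apoa1, the main protein of high density lipoprotein, of 5904.6, 6063.8 and 6639.9 in Sprague Dawley and 3466.9, 3545.6 and 4034.1 in Han Wistar livers (differences 0.75 ± 0.14 and 0.75 ± 0.11, limma adjusted p = 0.0047 and 0.00143; after quantile normalization 0.30 and 0.45). None of 16 lymphocyte or 6 neutrophil markers was called by limma (1 and 0 had an unadjusted p under 0.05), and Cd3d, Cd8b and Klrd1, and Csf3r, Mmp8, Camp and Cxcr2, were under a signal of 10 in all 6 livers. Of 8 erythroid markers 2 were higher, among them Slc4a1, the anion exchanger of red cells (0.84 ± 0.20, limma adjusted p = 0.0191; 0.0677 without Sprague Dawley animal 6, 0.0746 without Han Wistar animal 2); with any animal but Sprague Dawley animal 8 left out 1 was called. Of 7 bile duct markers Epcam was higher (0.53 ± 0.16, limma adjusted p = 0.0489), a call lost without any 1 animal other than Sprague Dawley animal 8.

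Of 13 markers of pancreas, gut and fat, Cela1 was lower and Cfd higher, with 1 call without Sprague Dawley animal 7 or Han Wistar animal 2 or 3. Cela1, a pancreas-type elastase, had signals of 250.2, 378.8 and 251.3 in Sprague Dawley and 550.5, 823.3 and 923.1 in Han Wistar livers, and of 207, 172.1 and 180.4 in germ-free and 976.8, 978.1 and 695.3 in antibiotic-treated livers. All 6 Sprague Dawley arrays lay below all 6 Han Wistar arrays (differences -1.33 ± 0.20 and -2.14 ± 0.14, limma adjusted p = 0.00143 and 0.000322), and the summed signal of the 13 markers was 429 to 576 in Sprague Dawley and 729 to 1226 in Han Wistar controls. Cela1 alone gave 250.2 to 378.8 and 550.5 to 923.1 of these sums, and 11 of the 13 markers were not called. Of the 13, Prss1, Prss2, Cela2a, Ctrb1 and the fat marker Adipoq were under a signal of 10 in all 6 control livers. Amy2a3, a pancreatic amylase, had signals of 0.3, 9.6 and 5.1 in Sprague Dawley and 2.9, 282.6 and 18 in Han Wistar livers, high in 1 Han Wistar liver (difference -1.48 ± 0.73, limma adjusted p = 0.242). The pancreatic carboxypeptidase Cpa1 and lipase Pnlip differed by -0.04 ± 0.15 and -0.23 ± 0.16 (limma adjusted p = 0.934 and 0.431), and the part of other tissue in the Cela1 difference was not tested. Among markers of liver zones, 3 of 12 pericentral genes were higher, such as Gulo, the last enzyme of vitamin C synthesis (0.73 ± 0.12, limma adjusted p = 0.00281), and 3 of 13 periportal genes were higher and 3 lower; after quantile normalization 2 and none, and none and 4.

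Heat shock genes were called for 2 higher and 1 lower of 12 (median 0.23), and in the treated pair for 1 higher and 6 lower. The mitochondrial chaperone gene Hspd1 differed by 0.64 ± 0.09 (limma adjusted p = 0.00127) in the untreated pair. Hspa4, a cytosolic nucleotide exchange factor, had signals of 213.9, 214.1 and 207.4 in Sprague Dawley and 86.3, 71.1 and 141.4 in Han Wistar livers and was higher in both pairs (1.02 ± 0.17 and 1.22 ± 0.12, limma adjusted p = 0.00265 and 0.00167). Of 9 genes of fetal and growing liver limma called none, with 2 at an unadjusted p under 0.05.

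**Figure D5:**
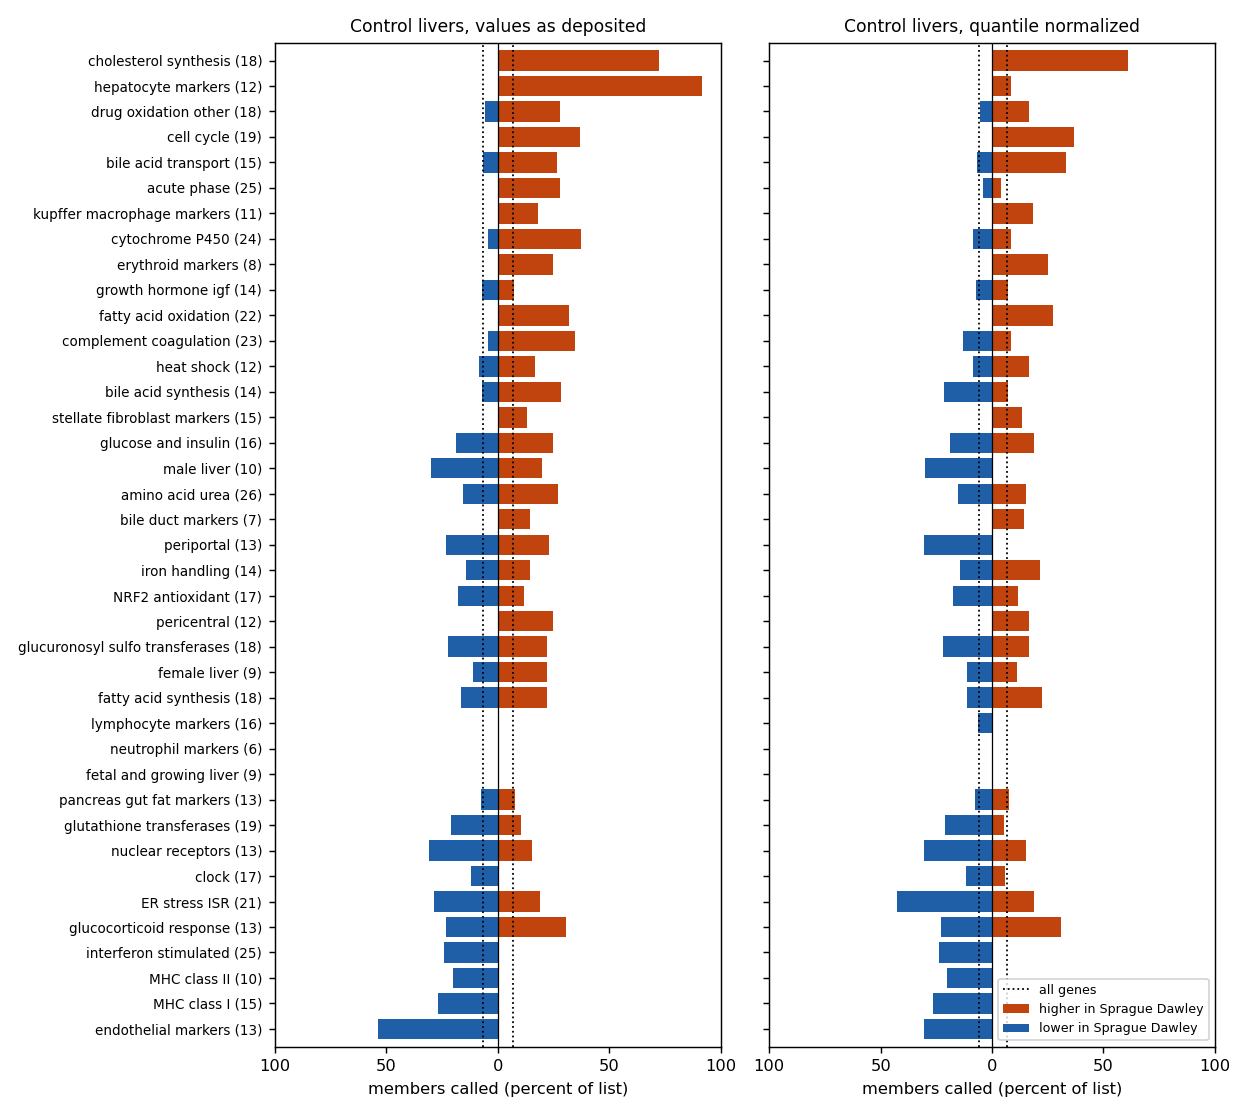
Share of each gene list called higher (orange, right) or lower (blue, left) in untreated Sprague Dawley than Han Wistar livers, for values as deposited and after quantile normalization, with the number of genes in brackets and dotted lines at the shares of all genes (6.82% and 6.65%; 6.89% and 6.02%). Cholesterol synthesis keeps 11 of its 13 higher genes, whereas hepatocyte markers go from 11 to 1.

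Different probe sets of a gene did not always give the same direction. Of the 1915 called genes 554 had another probe set at or above the median signal; in 174 another probe set was called the same way and in 24 the opposite way. The brightest probe set was the higher one in Sprague Dawley rats for 18 of the 24. Probe sets of 1 gene can lie at different distances from the 3′ end, and the part of the actin ratio in these 24 was not tested. Strains can also differ in sequence under a probe, which was not tested for any gene. For a gene read by 1 probe set, this and a difference in transcript level cannot be told apart.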

How the data were processed

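Each of the 12 livers was hybridised to 1 Affymetrix array, as biotin-labelled target made from 5 µg of total RNA per the labels' protocols. The authors deposited 1 signal per probe set and array, an intensity on a linear scale, made with MAS5 per the submitters' processing notes; its version and scaling target are not given in the sources used here. With 2% of values cut at each end, each array averaged 100.0 to 100.1. Samples were grouped by title and strain label, and the labels call them separate animals.

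From the deposited table, 57 control probe sets of 31099 were set aside. Log2(signal + 16) of all 12 arrays was fitted with limma 3.58.1 (R 4.3.3; lmFit and eBayes with an intensity trend), 1 mean per group, and p-values were adjusted by Benjamini-Hochberg over 31042 probe sets. The fit had 8 residual and 5.5 prior degrees of freedom. Calls shared by the untreated and treated pairs came from a fit of each pair's own 6 arrays; the difference between pairs was a contrast of the 12-array fit. Ratios of control probe sets were tested by exact permutation (scipy 1.17.1). Symbols came from the platform annotation, updated through RefSeq gene tables for 20764 probe sets by gene ID and 2 by accession; 66 kept theirs, 436 probe sets had several symbols and 9780 were unnamed here. Promoters are RefSeq sequences (GRCr8), matched by symbol.

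The comparison and the 40 gene lists were chosen with earlier results of these data known. Named genes were the 15 highest and 15 lowest called, non-overlapping genes at or above the median signal (19.67), the 10 largest in both pairs, up to 4 per list by smallest p, and a fixed set of sex, clock and liver genes; other members of lists, Hyou1 and 1 unnamed probe set were chosen after their values were seen. Tested on simulated data with 200 changed of 31042 probe sets, the untreated comparison recovered 19.4%, 71.6% and 98.5% of log2 changes of 0.5, 1 and 2, with 6 false calls. The 200 were drawn from probe sets at or above the median signal. The simulated noise was independent between arrays and held no RNA quality difference, so these rates do not cover dim probe sets or that difference. The 3 arrays per group limit the precision. Alternatives were the offset, a filter on dim probe sets, the scaling, the fit, the actin covariate, the handling of several probe sets and leaving out each animal.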

Additional observations from a re-analysis of the deposited data

Results flagged for a closer look

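For 40 of the 126 genes named above, the difference between the strains was not the same in the untreated and the treated livers: the limma contrast between the pairs had an adjusted p under 0.05. Among all genes the share was 2.20%. Most of the 126 were named for their untreated difference, which is itself part of the contrast, so the 2 shares cannot be compared. The treated pair compares germ-free with antibiotic-treated animals, so strain and treatment cannot be told apart in it. Higher in Sprague Dawley than in Han Wistar controls, with the limma adjusted p of the contrast in brackets, were Fam111a (0.00113), Pxmp4 (0.00551), Ptgis (0.00378), Abcg5 (6.63e-05), Abcg8 (0.000906), Phgdh (0.00902), Asns (0.026), Gsta3 (0.000461), Acot1 (0.0102), Idi1 (0.00414), Cyp51 (0.000906), Dhcr7 (0.0214), Cpt1a (0.00533), Cpt2 (0.0444), Slc25a20 (0.0091), Pex11a (0.0133), Me1 (0.0305), Ces2c (0.0295), Srxn1 (0.0139), Dbp (0.0419), Cdk1 (0.0332), Clec4f (0.0276) and Hspd1 (0.0404). Lower in Sprague Dawley controls were Stac3 (0.000147), Tmem14a (0.00549), Cyp4a8 (0.0235), Clca2 (0.00285), Sds (0.0176), Marveld1 (0.000511), Elapor1 (0.000511), Sesn2 (0.000124), Srebf1 (0.0281), Cyp3a9 (0.032), Sult1c2 (0.00877), Igfals (0.046), C6 (0.0164), Nr1d1 (0.00957), Tat (0.000314), Eng (0.0143) and Smad6 (0.0365). Nr1d1 and Dbp were not called in the untreated pair itself. Groups of 3 animals are too small to look for a single outlying sample.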

How the results depend on the processing

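The 3257 probe sets called of 31042 between the untreated strains became 4 with the actin ratio as a covariate. With 14217 genes tested in place of probe sets, 1992 genes were called by the mean of their probe sets and 2225 by 1 probe set per gene. The remaining settings gave 2554 to 4087, and leaving out 1 animal 1863 to 2961. Filters on dim probe sets also tested fewer of them, so counts with unlike numbers tested cannot be compared directly. For the treated pair the 1676 became 2752 with probe sets at or above the median signal only, and 598 to 987 without 1 animal. The 506 shared calls became 1080 above the median signal, 768 above the 75th percentile, and 191 to 514 without 1 animal. The 496 probe sets that differed between pairs became 781 above the median signal, 140 with the actin covariate, and 267 to 574 without 1 animal. The list genes, 188 called by brightest probe set, became 0 with the actin covariate, and 112 to 158 without 1 animal. The alternatives for shared calls and for the contrast between pairs, and the treated animals left out, were chosen after seeing the data. The covariate raised the standard errors; for other changes the cause was not tested.

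Signs turned with the covariate for Cul4a (0.08), Hspa5 (0.34), Hsp90b1 (0.06), Xbp1 (-0.12), Pex11a (-0.01), Nr1i3 (-0.01), Gstm2 (0.11), Xist (-0.07), Per2 (0.55), Psph (0.0) and Bmal1 (0.07), and with quantile normalization for Xbp1 (-0.06), Psph (0.01) and Cyp2c11 (-0.08). Cyp7a1 and Cpa1 turned with array weights (-0.04 and 0.08). With 1 animal left out, the differences ran from -0.05 to 0.15 for Xbp1, from -0.25 to 0.23 for Cyp7a1, from -0.19 to 0.10 for Psph, from -0.23 to 0.10 for Cpa1 and from -0.03 to 0.10 for Xist, none of them called. The Gapdh ratio turned for 3′ over middle (-0.00649). Of the 126 named genes, 126 kept direction and call with median centring and 118 with quantile normalization. No paired analysis was possible because the untreated groups share no animal number.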
